A study of Homo sapiens with 33 samples.

Results

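The 10 genes described here mark where a melanoma cell stands between a pigment-making and a dedifferentiated state: MITF, SOX10, SOX9, NGFR, AXL, PMEL, MLANA, TYR, DCT and ERBB3. They were chosen by name, and their rows were read from 3 deposited tables of RNA-sequencing results that hold 15149 different names in all. Of the 10 genes, 7 were listed among the 14332 entries of the A-375 total-knockout table, 8 among the 14160 entries of the A-375 long-form table and 8 among the 13310 entries of the UM-UC-3 table. Of these, 6 were listed in all 3 tables, and TYR in none.

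The study removed parts of GABPB1, which encodes a subunit of the ETS-family transcription factor GABP, with Cas9 in A-375 melanoma cells and UM-UC-3 bladder carcinoma cells, and sequenced 33 libraries. The A-375 total knockout joined 4 libraries labelled B1KO (exons 2 to 9 deleted) and 8 labelled B1X2KO (exon 2 deleted), from 9 clones. The A-375 long-form knockout, labelled B1LKO (exon 9 deleted), had 2 libraries from 2 clones. In UM-UC-3 the total knockout joined 4 B1KO and 5 B1X2KO libraries, from 8 clones. As controls there were 4 libraries of clones cut at ROSA26, a locus edited without known harm, and 2 of parental cells in A-375, and 3 and 1 in UM-UC-3. Each edited line was grown from a sorted single cell, so differences between clones enter every comparison, while parental cells were not cloned. Each table is named for its knockout set over parental cells and lists no control libraries, so the UM-UC-3 values may rest on 1 control library.

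In the melanocyte lineage, SOX10 and PAX3 switch on MITF, the transcription factor that drives the pigment genes TYR, DCT, PMEL and MLANA. Melanoma cells can leave this state for a neural crest-like one with high NGFR, and further for an undifferentiated, mesenchymal-like one with high AXL and low SOX10 and MITF. The states are known for their different responses to inhibitors of BRAF and MEK. A-375 carries an activating BRAF mutation. UM-UC-3 comes from another lineage, so the same genes there are not read as melanoma states.

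Promoter windows of 300 bases, 250 before and 50 from a RefSeq start (GRCh38.p14), were given for 5 of the 10 genes: MITF, MLANA, TYR, DCT and AXL, with 9 windows. There was none for SOX10, SOX9, NGFR, PMEL and ERBB3. The windows are shown because MITF and GABP bind known short motifs, searched here on both strands with no overlap between them. MITF binds the M-box core CATGTG, and 5 matches to it lay in 3 genes. They are printed 5′ to 3′ on the strand of the match, with the core in capitals and 10 bases on each side:
TYR, 104 bases before the start: aaaagtcagtCATGTGcttttcagag
TYR, 12 bases before the start: tcagccaagaCATGTGataatcactg
DCT, 215 bases before the downstream start: tatctgggctCATGTGctccagccaa
DCT, 134 bases before the downstream start: cactttgggtCATGTGctaatgatga
AXL, 79 bases before the downstream start: tgtgtacgtgCATGTGttgagtatct
Among 35116 RefSeq windows, 11.1% held this core. The E-box CACGTG, also bound by MITF, was in 7.26% of all windows and in none of the 9. The ETS core CCGGAAG, which GABP binds, was in 10.3% of all windows and in 1 of the 9, beginning 16 bases after the upstream start of DCT. The cyclic-AMP response element TGACGTCA, bound by CREB1 and added after the windows had been read, was in 1.85% of all windows. It was in 1 of the 9, beginning 152 bases before the downstream start of MITF, which serves the melanocyte form. A match describes letters only, and no binding was measured.

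Values were given per gene, so the start in use in UM-UC-3 is not known, and no link between a match and a change was tested. AXL, which fell there, has a window with an M-box core that is not printed in full. MITF and DCT are the genes with windows that rose in UM-UC-3, as given further on. Their 3 windows that hold a match follow on the strand of the gene, with the match in capitals (for DCT downstream the M-box cores, for DCT upstream the ETS core and for MITF the cyclic-AMP element):
DCT downstream start, chr13:94479633-94479932, minus strand: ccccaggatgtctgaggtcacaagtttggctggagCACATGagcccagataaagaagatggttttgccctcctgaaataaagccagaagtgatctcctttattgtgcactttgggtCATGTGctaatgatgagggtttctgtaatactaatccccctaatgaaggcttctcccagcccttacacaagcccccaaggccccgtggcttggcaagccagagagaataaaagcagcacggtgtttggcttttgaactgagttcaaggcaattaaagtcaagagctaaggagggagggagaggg
DCT upstream start, chr13:94549357-94549656, minus strand: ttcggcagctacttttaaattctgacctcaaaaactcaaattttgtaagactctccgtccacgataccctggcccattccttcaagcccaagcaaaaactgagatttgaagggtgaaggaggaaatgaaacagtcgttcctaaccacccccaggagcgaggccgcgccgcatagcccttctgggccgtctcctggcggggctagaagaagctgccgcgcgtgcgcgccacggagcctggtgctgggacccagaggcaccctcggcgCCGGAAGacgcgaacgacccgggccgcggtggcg
MITF downstream start, chr3:69936342-69936641, plus strand: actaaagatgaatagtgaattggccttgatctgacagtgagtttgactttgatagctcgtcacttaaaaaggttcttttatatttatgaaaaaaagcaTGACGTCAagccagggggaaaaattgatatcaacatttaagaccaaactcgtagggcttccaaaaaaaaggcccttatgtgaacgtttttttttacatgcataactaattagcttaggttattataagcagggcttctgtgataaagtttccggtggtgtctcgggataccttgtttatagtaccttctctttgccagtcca

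**Figure D1:**
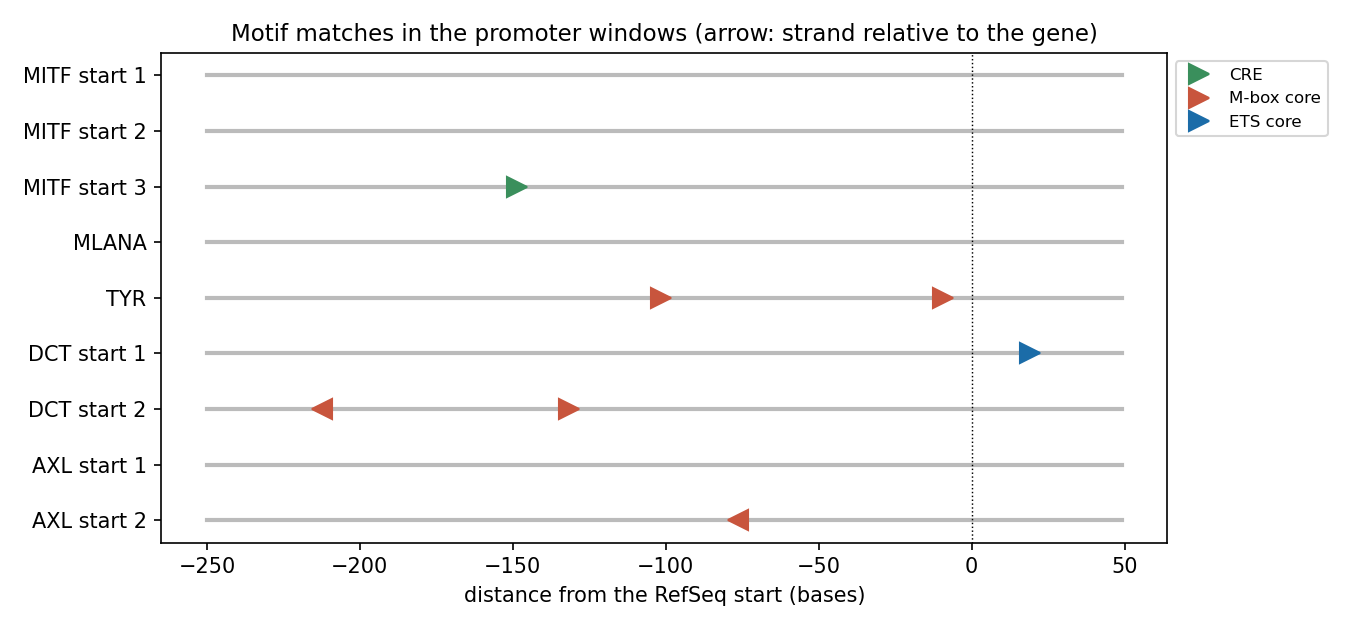
Motif matches in the 9 promoter windows of MITF, MLANA, TYR, DCT and AXL by distance in bases from the RefSeq start (dotted line); arrows point right for the strand of the gene and left for the other. M-box cores lay in TYR, DCT start 2 (downstream) and AXL start 2 (downstream), the ETS core in DCT start 1 (upstream) and the cyclic-AMP element (CRE) in MITF start 3.

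All values come from the authors' fits: a mean normalized count over the libraries of a fit, a log2 fold change of knockout over control with its standard error (SE, printed after ±), and a Benjamini-Hochberg adjusted p of the DESeq2 Wald test. Depth per library could not be read from these tables, and the SE is the only measure of spread between libraries. Genes with an adjusted p under 0.05 are called here. Calls made up 10.8% of the 14330 genes tested in the A-375 total knockout (5.07% higher and 5.74% lower). They made up 0.904% of 14156 in the A-375 long-form knockout (0.240% higher and 0.664% lower) and 31.1% of 13310 in the UM-UC-3 total knockout (17.0% higher and 14.2% lower). The targeted gene's long form, GABPB1L, had log2 changes of -10.60 ± 0.70 (A-375 total knockout), -12.79 ± 1.47 (long-form knockout) and -12.60 ± 0.71 (UM-UC-3) per the authors' deposited tables. The short form, GABPB1S, also fell in both total knockouts (-9.81 ± 0.72 in A-375, -9.86 ± 2.70 in UM-UC-3). Entries named for forms without exon 2 rose there: GABPB1L-DEX2 by 13.61 ± 1.96 and 11.82 ± 1.46, GABPB1S-DEX2 by 12.36 ± 1.88 and 10.15 ± 1.62. GABPB1 message without exon 2 was thus present in the total knockouts. The authors' deposited table of the long-form knockout gives 13.95 ± 1.04 for GABPB1S and -12.00 ± 1.48 for GABPB1S-DEX2, an entry named for a form without exon 2. These short-form values go against what the labels say of the control libraries, so results of that table are given for the libraries labelled long-form knockout.

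Levels were compared between genes after scaling each mean to 1000000 of its table's sum and to kb of exon. Each mean joins knockout and control libraries, so these are not levels of control cells alone. In A-375, SOX10 (chr22:37970686-37987422 on hg38), the neural crest factor that keeps the lineage, had the highest such level of the 10 genes, at 204 in the total-knockout table and 212 in the long-form table. AXL (chr19:41219203-41261766), a receptor tyrosine kinase of dedifferentiated melanoma, followed at 69.2 and 97.3. ERBB3 (chr12:56076799-56103505), a neuregulin receptor, was at 57.1 and 81.4. The lower ranks were held by NGFR (chr17:49495293-49515017), a neurotrophin receptor of neural crest-like cells, at 7.68 and 17.9, and MITF (chr3:69739435-69968337) at 4.91 and 5.91. SOX9 (chr17:72121020-72126420), a relative of SOX10 in the same SOX group, was at 0.590 and 0.371. Pigment genes were at the bottom: PMEL (chr12:55954105-55973317), the melanosome matrix protein, at 0.265 and 0.306, and MLANA (chr9:5890802-5910606), a melanosomal antigen, at 0.277 in the long-form table and not listed in the other. The pigment enzymes TYR (chr11:89177452-89295759) and DCT (chr13:94436808-94479682) were in neither A-375 table. SOX10 was thus at 345 and 571 times the level of SOX9, and AXL at 14.1 and 16.5 times that of MITF. Of 6 melanocytic markers (MITF, SOX10, PMEL, MLANA, TYR and DCT), 3 and 4 were listed in the A-375 tables and 4 in UM-UC-3. Listing alone therefore did not set the lines apart. Their summed level, scaled to 1000000 without length, was 792 and 830 in the A-375 tables and 14.1 in UM-UC-3. By level, the lineage label was met in A-375 mainly by SOX10, with MITF far lower, and not by the pigment genes.

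In UM-UC-3 the order of scaled levels was another. AXL was at 175 and SOX9 at 28.0, with NGFR at 1.19, MITF at 1.17, ERBB3 at 0.663, SOX10 at 0.595, DCT at 0.340 and MLANA at 0.297. SOX9 was at 47.0 times the level of SOX10, and AXL at 149 times that of MITF. With 9 knockout libraries beside 1 or 4 controls, this order and these ratios are not those of control cells. If 1 control entered the fit, the values imply other counts in control libraries, here without scaling to length. These were 229 normalized counts for ERBB3, 138 for MITF, 49.1 for SOX10 and 44.8 for NGFR. The tables were normalized separately, so levels in different tables stand side by side without a test. Of 10 urothelial markers, 5 were listed in UM-UC-3, while UPK1B, UPK2, UPK3A, KRT20 and ELF3 were not, and 4 were listed in each A-375 table. Their summed level, scaled to 1000000 without length, was 35.5 in UM-UC-3, beside 59.5 in the A-375 total and 70.9 in the long-form table. PPARG alone made up most of each sum, at 23.4, 48.0 and 61.4. The 4 immune markers were listed in no table. The keratinocyte list had 2, 2 and 1 of 6 genes listed in the tables as ordered above, the fibroblast list 4, 4 and 3 of 7 and the endothelial list 2, 1 and 0 of 3.

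**Figure D2:**
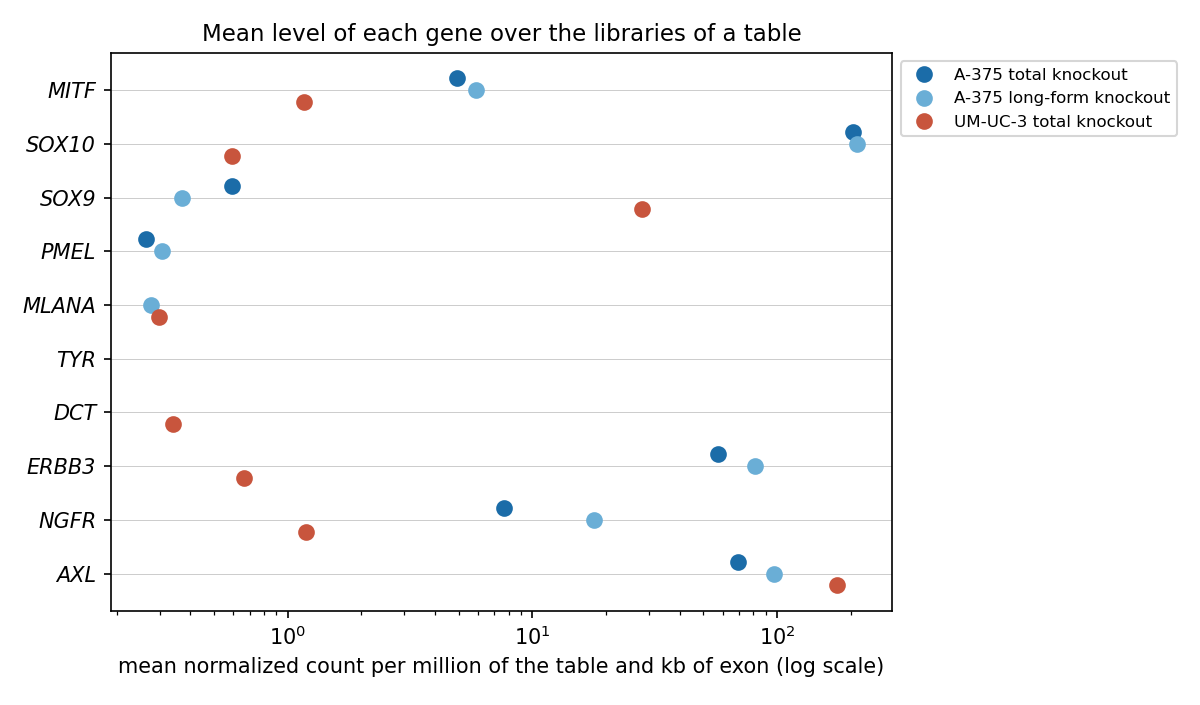
Mean level of each gene over the libraries of a table, as the mean normalized count scaled to 1000000 of the table's sum and per kb of exon, on a log axis; a gene not listed has no point. SOX10 had the highest level in the A-375 tables (204 in the total knockout) and AXL in the UM-UC-3 table (175).

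In the A-375 total knockout 0 of the 7 listed genes were called by the authors' DESeq2 test, against 10.8% of all genes, and 1, NGFR, had an unadjusted p under 0.05. The 7 genes had a median log2 change of -0.22, beside -0.05 over all genes. Among the transcription factors, the authors' deposited table gives SOX10 a mean of 14704 normalized counts and a log2 change of -0.12 ± 0.30, adjusted p = 0.843 (95% interval -0.70 to 0.47). For MITF it is a mean of 686 and a change of -0.22 ± 0.46, adjusted p = 0.809 (interval -1.12 to 0.69), per the authors' deposited table. SOX9, low in these cells, has a mean of 45.2 and a change of 0.81 ± 0.64, adjusted p = 0.440 (interval -0.45 to 2.07), again from the authors' deposited table. Each of these intervals includes 0, and those of MITF and SOX9 are wide enough to include changes of 1 log2 unit in 1 direction.

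The receptors had wide errors. NGFR stands in the authors' deposited table with a mean of 620.1 normalized counts and a log2 change of -2.71 ± 1.09, adjusted p = 0.0883 (interval -4.85 to -0.56). Its SE was above that of 99.0% of genes, and its q-value in the authors' deposited table is 0.0497. If 2 controls entered the fit, the values imply 346 normalized counts of NGFR in knockout libraries and 2263 in control libraries, and if 6 did, 218 in knockout libraries and 1425 in control libraries. These levels are solved from the same log2 change and add no separate evidence. NGFR was lower in the knockout on average, with an error that leaves it outside the threshold. For ERBB3, the authors' deposited table gives -0.92 ± 0.77, adjusted p = 0.467 (interval -2.43 to 0.58), with an SE above that of 95.1% of genes. For AXL, the authors' deposited table gives -0.45 ± 0.38, adjusted p = 0.472 (interval -1.19 to 0.29). PMEL, the single pigment gene listed, had a mean of 20.1 and a change of -0.01 ± 0.43, adjusted p = 0.994 per the authors' deposited table. Whether single clones set the NGFR value was not tested, since no value per library was at hand.

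In the long-form knockout of A-375, 0 of the 8 listed genes were called by DESeq2 and 0 had an unadjusted p under 0.05, against 0.904% of all genes called. Their median log2 change was -0.04, beside 0.02 over all genes, and 4 of 8 values were above 0. The lineage factors gave 0.01 ± 0.29, adjusted p = 0.994 for SOX10 (mean 42039) and 0.31 ± 0.41, adjusted p = 0.800 for MITF (mean 2271) per the authors' deposited table. The receptors gave 0.53 ± 0.68, adjusted p = 0.791 for AXL, -0.09 ± 0.36, adjusted p = 0.942 for ERBB3 and -0.13 ± 1.73, adjusted p = 0.985 for NGFR per the authors' deposited table. The interval of NGFR ran from -3.53 to 3.27, and its SE was above that of 99.4% of genes. Of the low genes, the authors' deposited table gives -0.25 ± 0.43 for MLANA, 0.12 ± 0.47 for PMEL and -0.20 ± 0.50 for SOX9, at means of 45.6, 63.9 and 78.1 normalized counts. For SOX10 the interval was far narrower, from -0.56 to 0.58.

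Both A-375 knockouts may share control libraries, in which case the error of their difference is too large. The short-form GABPB1 entries of the long-form table go against its labelled controls, as given above, so these differences hold only for the libraries as fitted. Of the 7 genes listed in both tables, 0 differed by the normal test on the DESeq2 values and 0 had an unadjusted p under 0.05, against 4.45% of 13946 genes called. Long-form minus total, NGFR differed by 2.58 ± 2.05, adjusted p = 0.510 (interval -1.44 to 6.60), and AXL by 0.98 ± 0.77, adjusted p = 0.506. The other differences were 0.83 ± 0.85 for ERBB3, 0.53 ± 0.62 for MITF, 0.13 ± 0.42 for SOX10, 0.12 ± 0.64 for PMEL and -1.01 ± 0.82 for SOX9.

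In UM-UC-3, 4 of the 8 listed genes were called: MITF, DCT and NGFR higher (3 genes, against 17.0% of all genes) and AXL lower (1 gene, against 14.2%). MITF, the melanocyte master factor, rose on the log2 scale by 1.47 ± 0.30, adjusted p = 2.37e-05, 2.77-fold, per the authors' deposited table. DCT, the dopachrome tautomerase of pigment synthesis, rose by 2.20 ± 0.54, adjusted p = 0.000504, 4.60-fold, per the authors' deposited table. NGFR rose by 2.35 ± 0.75, adjusted p = 0.00866, 5.10-fold, per the authors' deposited table, with an interval from 0.88 to 3.82. The AXL change in the authors' deposited table is -0.65 ± 0.10, adjusted p = 3.34e-08 (interval -0.85 to -0.44), and its SE is small: 6.32% of genes had a smaller SE. So 3 genes of low level rose, and AXL, the most abundant of the 10 there, fell. In bulk RNA, a change in the share of cells that express a gene and a change per cell cannot be told apart.

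The implied levels place these changes. If 1 control entered the fit, MITF had 381 normalized counts in knockout libraries and 138 in control libraries, DCT 118 and 25.6, and NGFR 228 and 44.8. If 4 controls did, MITF had 444 in knockout libraries and 160.4 in control libraries, DCT 143 and 31.1, and NGFR 279 and 54.7. AXL had 36225 in knockout libraries and 56771 in control libraries with 1 control assumed, and 32592 in knockout libraries and 51077 in control libraries with 4. MITF, DCT and NGFR thus started from low control levels, and AXL stayed high in the knockout.

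**Figure D3:**
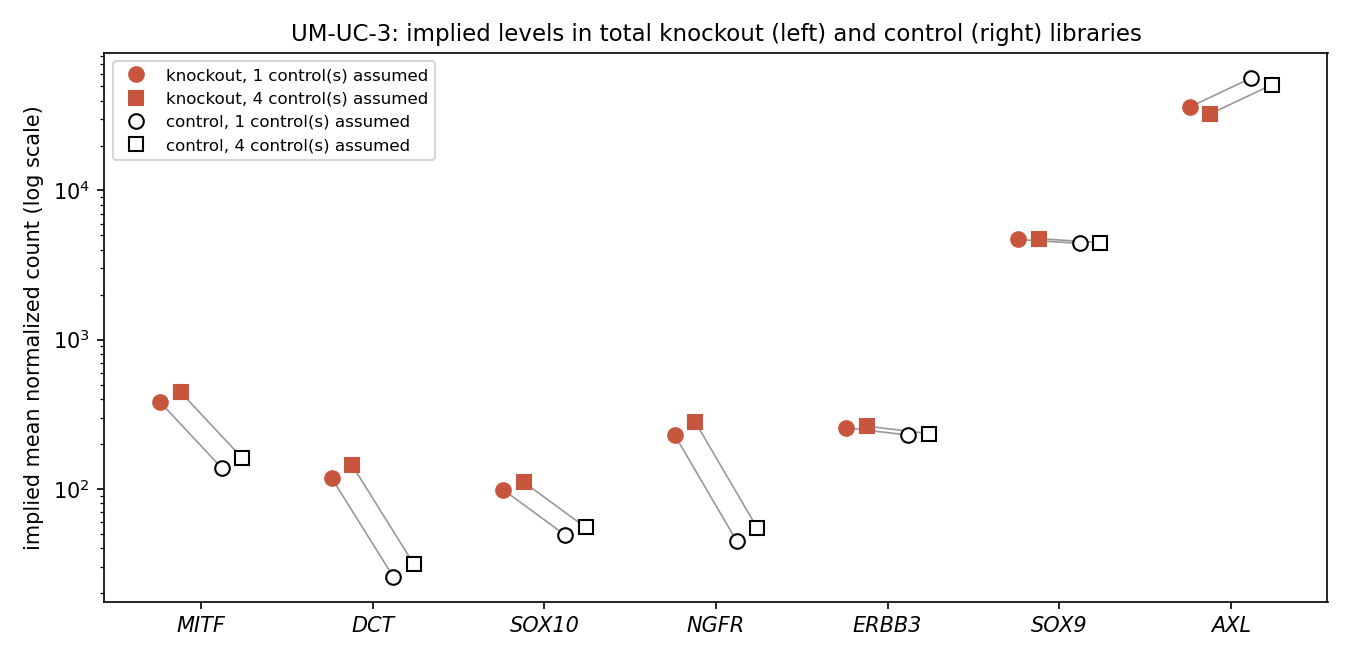
Implied mean normalized counts in UM-UC-3, on a log axis, in total-knockout libraries (filled, left) and control libraries (open, right), from the deposited mean and fold change with 1 control (circles) or 4 controls (squares) assumed. MITF, DCT and NGFR lay higher in the knockout and AXL lower, with MITF at 381 in knockout and 138 in control libraries when 1 control is assumed.

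Of the remaining genes in UM-UC-3, the authors' deposited table gives SOX10 a mean of 93.6 normalized counts and a log2 change of 1.01 ± 0.46, adjusted p = 0.0806 (interval 0.10 to 1.91; q-value 0.0326). SOX9, abundant there at a mean of 4664, has 0.09 ± 0.34, adjusted p = 0.869 per the authors' deposited table. ERBB3 has 0.16 ± 0.36, adjusted p = 0.764 and MLANA -0.12 ± 0.41, adjusted p = 0.845 per the authors' deposited table. The 8 genes had a median of 0.59, beside 0.03 over all genes. Low messages had higher medians in this table in general: genes with a mean under 100 had a median of 0.26 and 15.4% called higher, and genes from 100 to 1000, where MITF, DCT and NGFR fall, 0.10 and 19.2%. Of the urothelial markers, the lineage of these bladder carcinoma cells, 4 of the 5 listed were called higher (UPK1A, GATA3, KRT7 and PPARG), beside 17.0% of all genes. Of 3 listed fibroblast markers 1 was called, beside 31.1% of all genes: COL1A1, higher (1.06 ± 0.40, adjusted p = 0.0296, the authors' deposited table). PDGFRA (0.78 ± 0.49, adjusted p = 0.219) and THY1 (-0.57 ± 0.48, adjusted p = 0.374) were not called, per the authors' deposited table. The 1 listed keratinocyte marker, KRT10, was lower (-1.79 ± 0.61, adjusted p = 0.0154, the authors' deposited table). The part of low level or of these markers in the rise of MITF, DCT and NGFR was not tested.

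**Figure D4:**
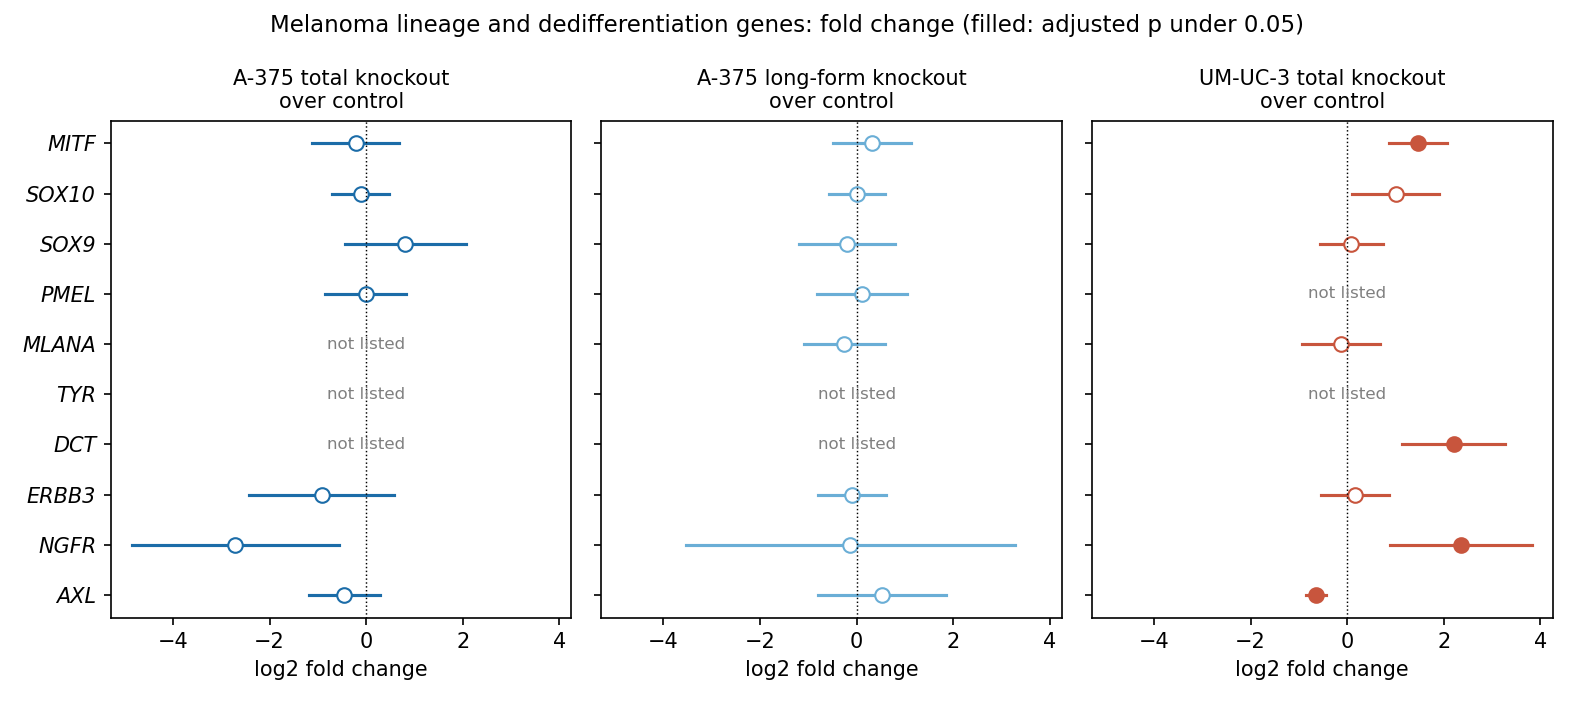
Log2 fold change of knockout over control for the 10 genes in the 3 tables, with 95% intervals from the deposited SE; filled points have an adjusted p under 0.05. No point is filled in the A-375 panels, MITF, DCT, NGFR and AXL are filled in UM-UC-3, and NGFR has the widest interval in each panel.

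Whether the total knockout acted differently in the cell lines was tested on the difference, A-375 minus UM-UC-3, since the lines share no library. Of the 6 genes listed for both lines, NGFR and MITF differed (2 genes, against 10.4% of 12639 genes). NGFR differed by -5.06 ± 1.33, adjusted p = 0.00467 (interval -7.66 to -2.46), and MITF by -1.68 ± 0.55, adjusted p = 0.0296 (interval -2.77 to -0.60). The difference was -1.12 ± 0.55, adjusted p = 0.175 for SOX10, -1.09 ± 0.85, adjusted p = 0.438 for ERBB3 and 0.73 ± 0.72, adjusted p = 0.560 for SOX9. For AXL it was 0.20 ± 0.39, adjusted p = 0.797, with an interval from -0.57 to 0.97, so a fall of AXL limited to UM-UC-3 was not shown. DCT was not listed in A-375 and was not tested.

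Exons of SOX10 overlap those of POLR2F, an RNA polymerase subunit, and exons of PMEL those of the cell-cycle kinase CDK2, each on the opposite strand. No source used here says whether reads were counted by strand, so the values of SOX10 and PMEL may hold reads of these neighbours. In UM-UC-3, POLR2F had a mean of 1475 normalized counts and a log2 change of -0.54 ± 0.19, adjusted p = 0.0217 per the authors' deposited table, opposite in sign to SOX10. Its means in the authors' deposited A-375 tables were 1851 and 4303, beside 14704 and 42039 for SOX10. CDK2 had means of 1977 and 6672 normalized counts in the authors' deposited A-375 tables, beside 20.1 and 63.9 for PMEL. In UM-UC-3, CDK2 had a mean of 2299 per the authors' deposited table, and PMEL was not listed. ERBB3 overlaps another gene on its own strand, and NGFR and AXL overlap genes on the opposite strand, none of them listed in a table.

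Related genes were read in 7 lists of 127 genes, whose counts stand beside 10.8% (A-375 total), 0.904% (long-form) and 31.1% (UM-UC-3) of all genes called. Of 25 pigment and melanosome genes, SLC45A2, SLC24A5, GPR143 and TRPM1, all known from pigment cells, were listed in no table. In the A-375 total knockout, 1 of 21 listed genes was called higher and 0 lower (median log2 change 0.14, beside -0.05 over all genes). That gene was HPS5, of a complex that sorts melanosome cargo (0.80 ± 0.28, adjusted p = 0.0451, per the authors' deposited table). With exon 9 deleted, 0 of 20 listed genes were called by DESeq2, with 3 at an unadjusted p under 0.05 (median 0.13, beside 0.02). In UM-UC-3, 5 of 20 listed genes were called higher and 1 lower (median 0.25, beside 0.03), so 6 of 20 were called, a share near the 31.1% of all genes. GPNMB, a melanosomal and lysosomal glycoprotein, rose there by 2.15 ± 0.57, adjusted p = 0.00117 per the authors' deposited table. BLOC1S3 (0.58 ± 0.12, adjusted p = 2.75e-05), LYST (0.59 ± 0.15, adjusted p = 0.000672), HPS1 (0.53 ± 0.13, adjusted p = 0.000765) and HPS4 (0.40 ± 0.09, adjusted p = 0.000212), which serve lysosome-related organelles, also rose per the authors' deposited table. RAB27A, which carries melanosomes to the cell edge, fell (-1.12 ± 0.33, adjusted p = 0.00476, the authors' deposited table).

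Other genes described as MITF targets were called in both directions in UM-UC-3 and only higher in the A-375 knockouts. In the A-375 total knockout, 2 of 11 listed genes were called higher and 0 lower (median 0.12). The survival gene BCL2A1 rose (3.40 ± 0.79, adjusted p = 0.000857), and so did the protease CAPN3 (1.64 ± 0.57, adjusted p = 0.0401), per the authors' deposited table, beside MITF at -0.22 ± 0.46. In the long-form knockout, 1 of 11 listed genes was called higher and 0 lower (median 0.14): the lysosomal protease CTSK was higher in the libraries so labelled (2.95 ± 0.47, adjusted p = 7.46e-07, the authors' deposited table). For UM-UC-3, 3 of 10 listed genes were called higher and 3 lower (median 0.11). CAPN3 (1.59 ± 0.42, adjusted p = 0.00136), the reductase GMPR (1.42 ± 0.48, adjusted p = 0.0145) and the ceramidase ASAH1 (0.63 ± 0.15, adjusted p = 0.000192) rose per the authors' deposited table. The formin DIAPH1 (-0.61 ± 0.09, adjusted p = 9.32e-09), CDK2 (-0.61 ± 0.19, adjusted p = 0.00730) and the protease BACE2 (-0.40 ± 0.16, adjusted p = 0.0413) fell per the authors' deposited table.

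Among MITF paralogs and factors that act on MITF, 0 of 12 listed genes were called higher and 1 lower in the A-375 total knockout (median -0.02). The gene was LEF1, a Wnt-pathway factor (-1.20 ± 0.43, adjusted p = 0.0486, the authors' deposited table). PAX3, the activator of MITF, had -0.01 ± 0.27, adjusted p = 0.991 per the authors' deposited table. In libraries labelled long-form knockout, 0 of 12 listed genes were called by DESeq2, with 2 at an unadjusted p under 0.05 (median 0.07). In UM-UC-3, 5 of 11 listed genes were called higher and 1 lower (median 0.62, beside 0.03 over all genes), and PAX3 was not listed. CREB1, which acts through cyclic AMP, rose by 0.81 ± 0.17, adjusted p = 6.33e-05 per the authors' deposited table. The transcription factors ZEB1 (0.88 ± 0.20, adjusted p = 9.42e-05), TBX3 (0.97 ± 0.29, adjusted p = 0.00547), ZEB2 (0.67 ± 0.25, adjusted p = 0.0302) and TFE3 (0.27 ± 0.08, adjusted p = 0.00877) rose, and LEF1 fell (-0.29 ± 0.11, adjusted p = 0.0331), per the authors' deposited table.

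Neural crest and Schwann genes, the lineage of SOX10 and NGFR, were counted next: in the A-375 total knockout, 3 of 23 listed genes were called higher and 1 lower (median 0.41, beside -0.05). The neurotrophic ligand GDNF (2.58 ± 0.57, adjusted p = 0.000422), the adhesion molecule NCAM1 (2.39 ± 0.51, adjusted p = 0.000211) and the homeobox gene MSX2 (1.01 ± 0.36, adjusted p = 0.0456) rose per the authors' deposited table. TWIST1, a factor of mesenchymal and crest cells, fell (-1.04 ± 0.35, adjusted p = 0.0356, the authors' deposited table). In the long-form knockout, 0 of 22 listed genes were called higher and 1 lower (median -0.11): the early crest factor FOXD3 was lower in the libraries so labelled (-1.02 ± 0.28, adjusted p = 0.0418, the authors' deposited table). For UM-UC-3, 0 of 16 listed genes were called by DESeq2, with 5 at an unadjusted p under 0.05 (median 0.55, beside 0.03).

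Of dedifferentiation and invasion genes, which go with AXL in melanoma, 0 of 24 listed genes were called by DESeq2, with 5 at an unadjusted p under 0.05 in the A-375 total knockout (median 0.19). In B1LKO clones, 0 of 24 listed genes were called by DESeq2, with 2 at an unadjusted p under 0.05 (median 0.15). In UM-UC-3, 0 of 23 listed genes were called higher and 3 lower (median -0.06). Of all genes there, 17.0% were called higher and 14.2% lower, so the share called lower was near that of all genes. A joint fall of the list with AXL was not tested. The matrix crosslinker LOXL2 (-0.72 ± 0.23, adjusted p = 0.00916), the cytokine TGFB1 (-0.51 ± 0.13, adjusted p = 0.000616) and the AP-1 member FOSL1 (-0.38 ± 0.14, adjusted p = 0.0248) fell per the authors' deposited table, beside AXL at -0.65 ± 0.10.

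Among partners and ligands of the receptors ERBB3, AXL and NGFR, 1 of 13 listed genes was called higher and 0 lower in the A-375 total knockout (median 0.37). It was BDNF, a neurotrophin that binds NGFR (1.68 ± 0.59, adjusted p = 0.0428, the authors' deposited table). In the long-form knockout, 0 of 12 listed genes were called by DESeq2, with 1 at an unadjusted p under 0.05 (median 0.02). In UM-UC-3, 1 of 11 listed genes was called higher and 1 lower (median 0.10). BDNF rose there too (1.86 ± 0.67, adjusted p = 0.0227, the authors' deposited table). GAS6, the ligand of AXL, fell (-1.04 ± 0.20, adjusted p = 7.48e-06, the authors' deposited table), so ligand and receptor were both lower in the UM-UC-3 knockout. In the A-375 total knockout GAS6 had 1.24 ± 0.48, adjusted p = 0.0727 per the authors' deposited table.

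Of the other SOX factors, 1 of 10 listed genes was called higher and 2 lower in the A-375 total knockout (median 0.01). SOX6 rose (1.42 ± 0.30, adjusted p = 0.000170), and SOX11 (-1.23 ± 0.40, adjusted p = 0.0296) and SOX18 (-1.59 ± 0.46, adjusted p = 0.0102) fell, per the authors' deposited table. For the exon 9 deletion, 0 of 10 listed genes were called by DESeq2, with 0 at an unadjusted p under 0.05 (median -0.25). In UM-UC-3, 1 of 8 listed genes was called higher and 0 lower (median 0.32): SOX8, of the same SOX group as SOX9 and SOX10, rose (0.98 ± 0.27, adjusted p = 0.00210, the authors' deposited table).

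**Figure D5:**
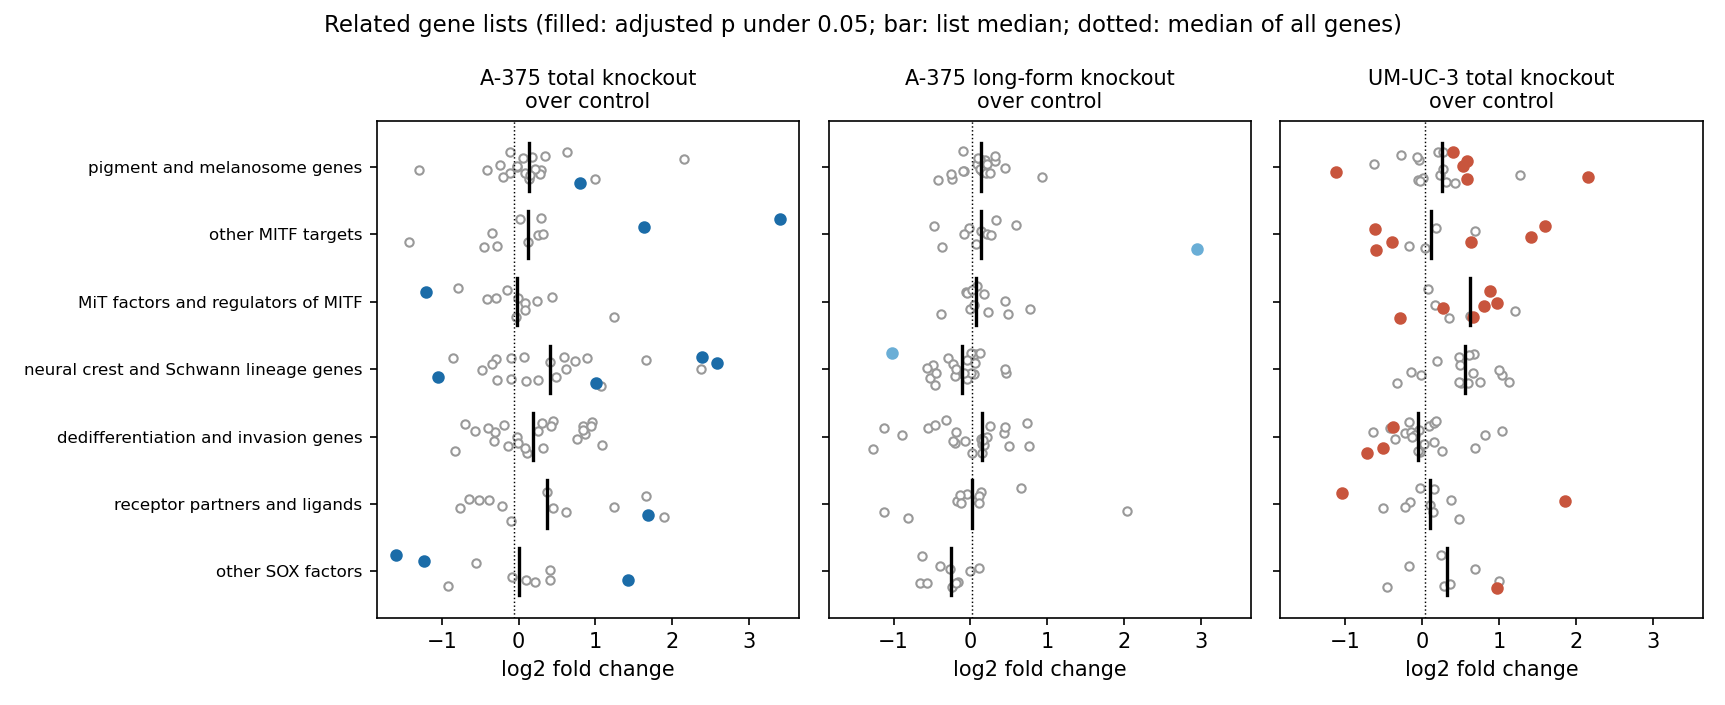
Log2 fold change of knockout over control for each listed gene of the 7 lists in the 3 tables; filled points have an adjusted p under 0.05, bars are list medians and the dotted line is the median of all genes. The list of MITF paralogs and factors that act on MITF had 5 of 11 listed genes called higher in UM-UC-3, where 17.0% of all genes were. It had 0 of 12 in the A-375 total knockout, where 5.07% of all genes were. The difference between the tables was not tested for the list.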

How the data were processed

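The authors deposited 3 tables of DESeq2 output, 1 per comparison, each with a value per gene and none per library. The submitters' processing notes name HISAT2, SAMtools, StringTie, DESeq2 and hg38. No version, annotation, design formula, filter or list of control libraries was found in the labels or headers. The signal column is a mean over all samples per the file headers, read here as DESeq2's normalized count. The log2 columns hold the authors' fold change and its standard error. The score column holds the authors' Wald statistic. The p-value columns hold the authors' p, its Benjamini-Hochberg adjustment and their q-value. Adjusted p-values recomputed here differed from the deposited ones by at most 6.98e-05.

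The 10 genes, the lists and the tests were chosen with earlier results of these data known. A difference between tables was divided by the root of the summed squared errors (2-sided normal p, Benjamini-Hochberg over genes whose mean was at least 10 in each table), a step tested on simulated data. The simulated errors were normal, independent and of the deposited size, so the simulation checks the calculation and does not cover shared controls. Intervals are 95% normal intervals. Exon lengths and places came from GENCODE 29 on hg38, and implied levels solve the mean and the fold change for knockout and control. Named list genes are those called, up to 5 each way per list and table by adjusted p. Values of PAX3, COL1A1, KRT10, PDGFRA, THY1, NRG1, POU3F2 and, in A-375, GAS6 were added after they were seen, as were neighbours that overlap a member. The rule naming genes of like pattern gave none, since 0 of the 10 genes were called in A-375. Depth per sample is unknown, so the standard error is the precision of a value. Labels do not say that libraries of a clone are separate cultures, so p-values measure the spread between these libraries. Python 3.11.15, pandas 2.3.3 and SciPy 1.17.1 were used.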

Additional observations from a re-analysis of the deposited data

Results flagged for a closer look

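The log2 effect of the total knockout differed between the cell lines, by the test of the difference A-375 minus UM-UC-3, for 2 of the 6 genes of the set tested and 9 of the 93 list genes tested, beside 10.4% of 12639 genes. NGFR (-5.06) and MITF (-1.68) are described above. CREB1 (-1.10), ZEB1 (-1.29), HPS4 (-0.64) and POU3F2 (-1.41) had the lower change in A-375. BCL2A1 (3.37), NCAM1 (2.53), GAS6 (2.28), NRG1 (2.40) and BACE2 (0.69) had the higher change in A-375. POU3F2 and NRG1 were called in none of the 3 tables and are named only for this difference. The causes were not tested.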

How the results depend on the processing

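Alternatives were the authors' q-value, centring on the median of all genes, adjustment among genes of a mean of 10 or 100 and above, and a threshold of 0.01. Only centring alters a log2 change, so direction could turn under that setting alone, and the others alter only the call. Of 108 checks of log2 changes of the 10 genes, 104 kept their direction and their side of the threshold. Centring turned the sign of 2 values near 0, PMEL in the A-375 total knockout (0.046) and SOX10 in the long-form knockout (-0.0071), neither of them called. By the q-value 2 passed the threshold: NGFR in the A-375 total knockout, where the count of genes called became 1, and SOX10 in UM-UC-3. MITF, DCT, NGFR and AXL stayed called in UM-UC-3 under each of these alternatives. Of the cell-line differences, MITF (-1.68) no longer passed at 0.01, which left 1 of the 10 genes.

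Of 105 recomputed list counts, 18 moved by over 1.5 times. In the A-375 total knockout, 0.01 left 0 pigment genes, 1 MITF target, 0 MITF paralogs or regulators, 2 crest genes, 0 receptor partners and 1 SOX factor. The q-value gave 1 dedifferentiation gene and 4 receptor partners, and centring gave 0 MITF paralogs or regulators and 2 receptor partners. Means of 100 and above left 1 MITF target, and means of 10 or 100 and above gave 2 receptor partners. In the long-form knockout 0.01 left 0 crest genes. In UM-UC-3 the q-value gave 5 crest genes, 5 dedifferentiation genes and 3 SOX factors, and 0.01 left 1 receptor partner. Of 46 implied levels, 2 moved with the number of controls by more than the SE of their gene's log2 change, both of AXL in UM-UC-3. That SE is not an error of the level, and for AXL it was small (0.10). NGFR control levels in the A-375 total knockout moved further, from 2263 to 1425, within an SE of 1.09. The causes were not tested.

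No paired analysis was possible because the tables hold no value per library, and for the same reason no replicate was left out. Depth is unknown, and genes not listed in a table have no value here.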
